A study of Aspergillus nidulans with 4 samples.

Results

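The dba cluster of *Aspergillus nidulans* is a run of adjoining genes, AN7894 to AN7903, that holds a polyketide synthase gene (AN7903), the gene of a Zn(II)2Cys6 transcription factor (AN7896), and genes of tailoring enzymes and of a transporter. The 10 genes were chosen by their locus identifiers, and they were selected with their difference between Δ*pkaA* and WT mycelium already known. All 10 were found among the 10930 genes of the deposited table. RNA-seq had been done on mycelium of the Δ*pkaA* strain (FGSC A1358), which lacks the gene of the catalytic subunit of the cAMP-dependent protein kinase PKA, and of the parent strain it was made from (FGSC A1405, called WT), with 2 samples per strain. For both, the rich liquid medium YGV held 0.5% yeast extract and 2% glucose, the flasks were shaken at 250 rpm and 28°C, and mycelium was taken 20 h into the main culture. Neither the full genotype of either strain nor how many deletion strains were made was given in the sources used here, so each strain stands for itself.

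Polyketide synthases join small acyl units, mostly from malonyl-CoA, into a carbon chain that the neighbouring tailoring enzymes then oxidise and trim. In filamentous fungi the genes of such a pathway usually lie side by side and are switched on together by a transcription factor encoded among them. The name dba stands for derivative of benzaldehyde. The cluster is known as one that is mostly silent in laboratory culture, and its products were found in a strain without a working COP9 signalosome, a complex that removes the modifier Nedd8 from cullins.

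Values are the authors' mean normalized count per strain, that is, reads per gene divided by a size factor for each library and averaged, and they carry no error of their own. Reads per library could be worked back from the low means, up to 800 for Δ*pkaA* and 1500 for the WT. The library of each strain with the larger size factor is called a and the other one b, and neither can be matched to a labelled replicate. The labels call the samples biological replicates with 2 technical replicates each, and the sources used here do not tell how the technical replicates entered the counts. The size factors were 1.02 and 0.982 in Δ*pkaA* and 1.04 and 0.960 in the WT, so that the libraries were close in depth. The deleted gene, *pkaA* (AN6305), had 79 and 69 reads in the Δ*pkaA* libraries a and b, against 1892 and 1851 reads in the WT libraries. Ratios put the Δ*pkaA* mean over the WT mean. As the members were chosen by this contrast, it is described here without a test for them.

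All 10 dba genes had a higher mean in Δ*pkaA*, and 0 had a lower mean. Their median ratio was 35.3, which is 5.12 on the log2 scale, and the ratios ran between 5.72 for AN7895 and 277 for AN7897. All 10 were also at least 4-fold higher, 9 were over 10-fold higher, and 4 were over 100-fold higher. Of the 9455 genes in all whose 2 means averaged at least 10, 16.3% were at least 2-fold higher in Δ*pkaA* and 16.4% at least 2-fold lower, figures that stand here as background only. The 10 genes together held 0.140% of the sum of all means in Δ*pkaA* and 0.00630% in the WT.

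The cluster spans 29129 bases, with AN7894 at bases 165253 to 166255 and AN7903 at bases 186499 to 194381, as the deposited table places them. The table names neither the chromosome nor the genome release, and a RefSeq gene table puts the genes on chromosome II. Reading along the cluster, 6 genes lie on the plus strand and 4 on the minus strand, with gaps of 53 to 2423 bases between neighbours. The regulator gene AN7896 and the monooxygenase gene AN7897 end tail to tail with 54 bases between them, as do the esterase gene AN7899 and the oxidoreductase gene AN7900 with 53 bases, and AN7901 and AN7902 with 183 bases. Whether the counting used the strand is not given in the sources used here, so reads that run past the end of one gene of such a pair cannot be told apart from those of its partner. Start to start, AN7898 and AN7899 share a gap of 506 bases, AN7900 and AN7901 one of 1103 bases, and AN7902 and AN7903 one of 1220 bases.

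**Figure D1:**
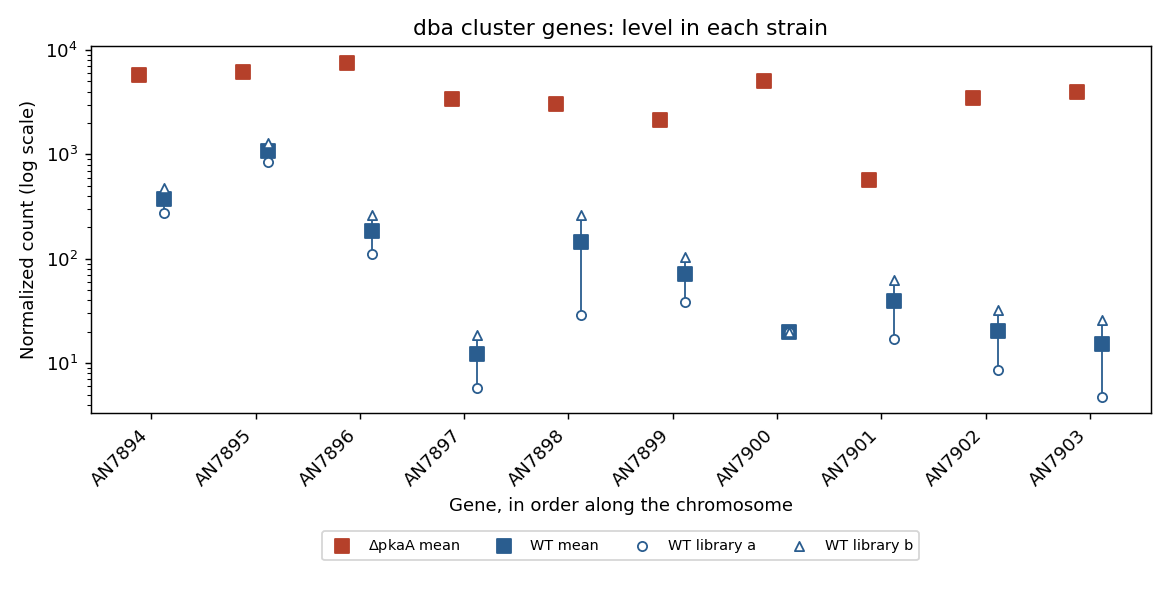
Normalized count (log scale) of the 10 dba genes in Δ*pkaA* (red squares, deposited mean) and the WT (blue squares, deposited mean), with the WT libraries a (circles) and b (triangles) joined by a line. Every Δ*pkaA* mean, from 566 to 7560, lies above both WT libraries of the same gene, and the WT libraries stand furthest apart in AN7898.

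AN7903 encodes the polyketide synthase, the enzyme that builds the backbone of the product. Its mean was 3969 in Δ*pkaA*, against 15.4 in the WT, a ratio of 258 and a log2 ratio of 8.01. The WT libraries held 5 and 25 reads of this gene, in a and b, so the WT level rests on few reads in both. AN7903 is the longest gene of the cluster, at 7883 bases. Per kb of gene, its level was 503 in Δ*pkaA* and 1.95 in the WT, which made it the lowest of the 10 in the WT and the second lowest in Δ*pkaA*.

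AN7896 encodes the Zn(II)2Cys6 transcription factor, a class of regulator found in fungi that binds DNA through a cluster of zinc ions and cysteines. It had the highest mean of the cluster in Δ*pkaA*, 7560, against 186 in the WT, a ratio of 40.7. The WT libraries held 115 and 251 reads of it, in a and b. AN7896 ranked 1 of 9 genes of at least 10 in average whose function text names this class, by log2 ratio and also by level per kb in Δ*pkaA*, and 7 of 9 by level per kb in the WT. Genes of this class whose text does not name it were not counted, and the ranks draw on the values that chose the members. AN7901 is annotated as a putative transcription factor with no conserved domain. It had the lowest mean of the cluster in Δ*pkaA*, 566, against 39.9 in the WT, a ratio of 14.2. It was also the only member whose reads could be recovered in all 4 libraries, with 524 and 608 reads in the Δ*pkaA* libraries and 18 and 60 reads in the WT libraries.

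Beside AN7903, the largest ratios were those of 3 genes of tailoring enzymes. The FAD-binding monooxygenase gene AN7897, of an enzyme class that puts oxygen into its substrate, had a mean of 3386 in Δ*pkaA*, against 12.2 in the WT, a ratio of 277. The WT libraries a and b held 6 and 18 reads of it. The second gene of that class, AN7902, had 3504 in Δ*pkaA*, against 20.4 in the WT, a ratio of 171. Its WT reads were 9 in a and 31 in b. AN7900, a putative oxidoreductase gene, had 4999 in Δ*pkaA*, against 19.9 in the WT, a ratio of 251. With 21 and 19 WT reads in a and b, it was the only member that did not have more reads in b. AN7899, a putative esterase or lipase gene, had 2140 in Δ*pkaA*, against 71.7 in the WT, a ratio of 29.8. It had 40 WT reads in a and 101 in b. With AN7903, the first 3 of these form the set of 4 genes over 100-fold higher, whose median ratio was 254. Among 9441 genes with an average of at least 10 and a mean above 0 in both strains, these 4 ranked 24 (AN7897), 29 (AN7903), 31 (AN7900) and 41 (AN7902) by the size of the rise in mean.

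AN7898 encodes a transporter of the major facilitator superfamily, a family whose members move small molecules such as secondary metabolites across membranes. Its mean was 3061 in Δ*pkaA*, against 145 in the WT, a ratio of 21.2. The WT libraries held 30 reads of AN7898 in a and 250 in b, so that most of its WT mean came from library b.

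The 2 genes at the left end of the cluster had the highest WT levels, and with AN7901 they had the 3 smallest ratios. AN7894, of unknown function, had a mean of 5694 in Δ*pkaA*, against 376 in the WT, a ratio of 15.1. Its WT reads were 285 in a and 461 in b. AN7895, a putative oxidoreductase gene, had 6119 in Δ*pkaA*, against 1069 in the WT, a ratio of 5.72. It had 876 WT reads in a and 1248 in b, by far the most of the cluster.

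The members were more alike in level in Δ*pkaA* than in the WT, a description that draws on the values that chose them. The low end of the WT levels rests on few reads, as in AN7903 with 5 in a and 25 in b. The highest mean was 13.3 times the lowest in Δ*pkaA* and 87.3 times the lowest in the WT, and the SD of the log2 means over the 10 genes was 1.06 in Δ*pkaA* and 2.18 in the WT. Per kb of gene the spread was 18.0-fold, between 315 (AN7901) and 5677 (AN7894), in Δ*pkaA*, and 427-fold, between 1.95 (AN7903) and 835 (AN7895), in the WT. The levels per kb in the 2 strains were related only in part, with a Pearson r of 0.62 between the log2 levels over the 10 genes, which share libraries and gene lengths. By level per kb among 9455 genes, AN7894 stood at percentile 94.6 in Δ*pkaA* and 39.7 in the WT, and AN7903 at percentile 45.2 in Δ*pkaA* and 0.899 in the WT. AN7895 had the highest WT percentile of the members, 61.2, and AN7901 the lowest percentile in Δ*pkaA*, 34.0.

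The difference between the WT libraries is a measure that did not choose the members. After division by the size factors, 9 of the 10 dba genes had more reads in WT library b than in a, and 7 were at least 2-fold higher in b, while 0 were at least 2-fold higher in a. Over the 5457 genes with a WT mean of at least 10 and within the recovered range, 3.83% were at least 2-fold higher in b, 54.8% were higher in b at all, and the median of b over a was 1.02. The median of this ratio over the dba genes was 1.58 on the log2 scale. Their median WT mean was 55.8, while the 5457 genes reach means of up to 1500, and lower means carry more counting error. The share at least 2-fold higher in b among genes of like mean was not counted. Summed over the 10 genes, the normalized counts were 2565 in b and 1345 in a, a ratio of 1.91.

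**Figure D2:**
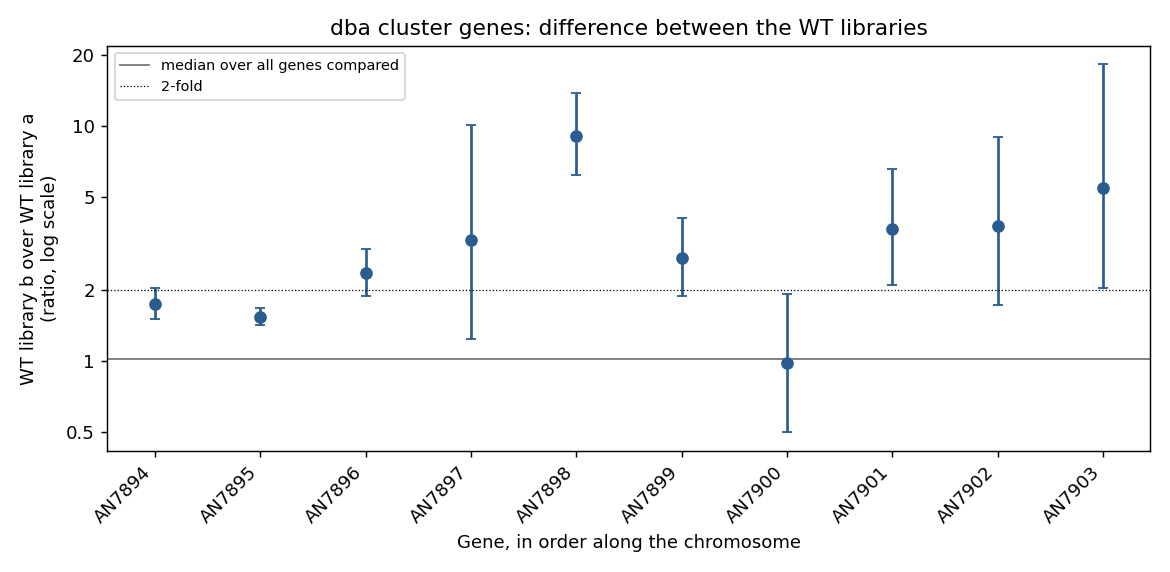
Ratio of WT library b over WT library a (log scale) for the 10 dba genes, after division by the size factors, with 95% intervals that cover counting error only; the grey line is the median over all genes compared, 1.02. The intervals of 9 genes lie above 1, that of AN7900 spans it, and AN7898 stands highest at 9.06.

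The transporter gene AN7898 showed the largest such ratio, 9.06 (95% interval 6.19 to 13.7, exact, counting error only). The polyketide synthase gene AN7903 had 5.44 (2.04 to 18.2), AN7902 had 3.75 (1.74 to 8.95), AN7901 had 3.63 (2.11 to 6.52) and AN7897 had 3.26 (1.24 to 10.04). These 4 genes had few WT reads, and their intervals overlap. The regulator gene AN7896 had 2.37 (1.90 to 2.99) and AN7899 had 2.75 (1.89 to 4.07). AN7894, at 1.76 (1.51 to 2.05), and AN7895, at 1.55 (1.42 to 1.69), were under 2-fold, and AN7900, at 0.984 (0.500 to 1.92), spanned 1. With each gene set against the median of genes of like WT mean, 9 of the 10 were still higher in b and the median over the members was 1.38 on the log2 scale. That step removes the median only and takes no account of the spread among those genes. The same ratios were not had for the Δ*pkaA* libraries, as the mean of every member but AN7901 lay above 800, where reads were not recovered.

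Set against each WT library alone, the Δ*pkaA* mean was still more than 2-fold higher for all 10 genes. Against library a, the folds ran between 7.30 and 829 with a median log2 ratio of 6.42, and against library b between 4.71 and 253 with a median log2 ratio of 4.60. The size of the difference thus depended on the WT library, and for AN7898 it was 107-fold against library a and 11.8-fold against library b. AN7900 had nearly the same fold against either library, 249 against a and 253 against b.

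The genes next to the cluster were examined to see how far the higher levels reach. On the left, AN7893, whose text gives a 2-oxoglutarate-dependent oxidoreductase domain, starts 388 bases from AN7894 on the other strand, and its mean was 5576 in Δ*pkaA*, against 29.5 in the WT, a ratio of 189. The WT libraries held 17 and 41 reads of AN7893, in a and b, so that b was 2.62 times a, as in most members. Beyond AN7893, the small heat-shock protein gene AN7892 had 411 in Δ*pkaA* and 1981 in the WT. On the right, the methyltransferase-domain gene AN7904 had 130 in Δ*pkaA*, against 80.0 in the WT, a ratio of 1.63.

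**Figure D3:**
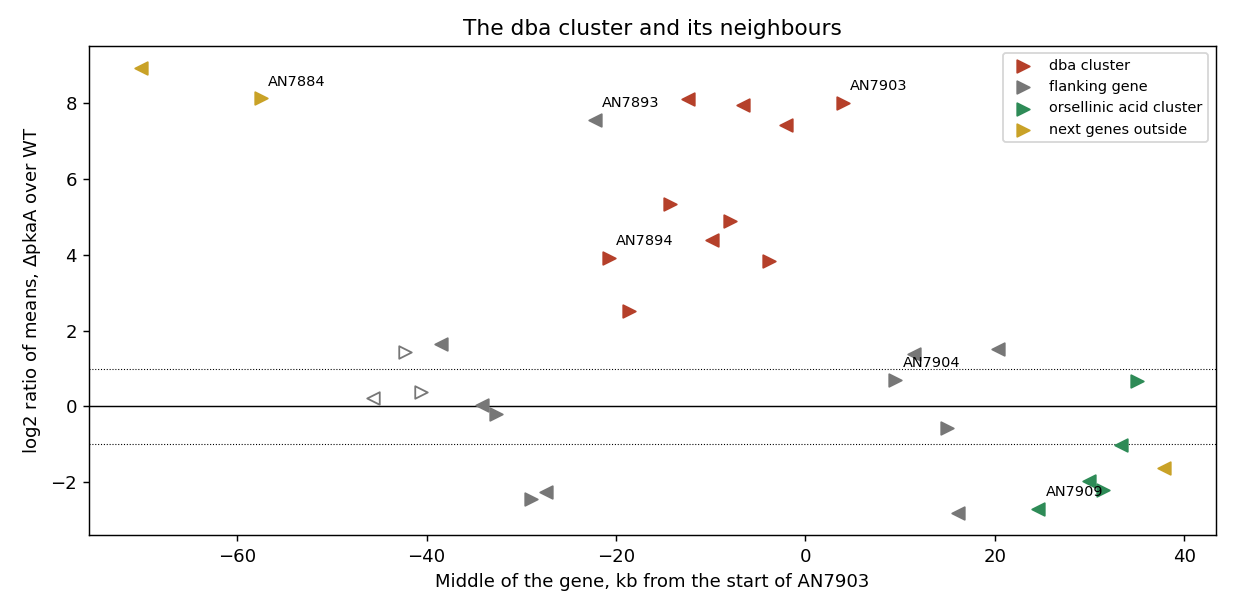
log2 ratio of the means of Δ*pkaA* over WT for the genes AN7883 to AN7915 against the distance of each gene's middle from the start of AN7903 in kb. Triangles point along the strand, open ones mark genes with an average under 10, and dotted lines mark 2-fold. The 10 dba genes and AN7893 lie at 2.52 or more, and the genes on either side of that stretch lie at 1.66 or less until AN7884.

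Of the 14 flanking genes AN7885 to AN7893 and AN7904 to AN7908, 11 had an average of at least 10, of which 4 were at least 2-fold higher and 3 at least 2-fold lower, with a median log2 ratio of 0.03. Where reads could be recovered in all 4 libraries, limma was fitted on log2(value + 1) with Benjamini-Hochberg adjustment over 3732 genes. It called 29.7% of them higher and 35.3% lower in Δ*pkaA* at an adjusted p below 0.05. The fit takes Δ*pkaA* means under 800 and WT means under 1500, so genes high in Δ*pkaA* are left out more readily. Its balance of rises and falls can therefore be tilted towards falls, while by means 16.3% of all genes were at least 2-fold higher and 16.4% lower. Of 8 flanking genes in that fit, 3 rose and 2 fell. AN7888, with no named function, rose by 1.75 (SE 0.32) on the log2 scale (limma adjusted p = 0.0035). The endoglucanase gene AN7891 had 15.4 in Δ*pkaA* and 84.3 in the WT, a log2 change of -2.38 (SE 0.31, limma adjusted p = 0.00085). AN7907, a putative glyoxylate-bleomycin resistance protein gene, had 6.50 in Δ*pkaA* and 45.7 in the WT, a log2 change of -2.64 (SE 0.33, limma adjusted p = 0.00075).

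With 1 library left out, 1 strain is down to a lone sample, which is assumed to vary like the other strain. AN7904 had a log2 change of 0.70 (limma adjusted p = 0.018), which was 0.65 without Δ*pkaA* library a and 0.74 without b but was not called in either fit (adjusted p = 0.13 and 0.096). The arabinofuranosidase gene AN7908 had 20.4 in Δ*pkaA* and 7.08 in the WT, a log2 change of 1.42 (limma adjusted p = 0.034). Its change was 1.07 without Δ*pkaA* library a, 1.77 without Δ*pkaA* library b and 1.00 without WT library a, and it was not called in these fits (adjusted p = 0.17, 0.055 and 0.10). The other flanking genes over the filter were AN7889 with 1694 in Δ*pkaA* and 1657 in the WT, the glucose oxidase gene AN7890 with 605 and 700, AN7905 with 23.3 and 8.95, and AN7906 with 25.1 and 37.4, each in the same order of strains. AN7905, AN7906 and AN7890 did not pass the limma test (adjusted p = 0.062, 0.34 and 0.12), though AN7905 did without Δ*pkaA* library b (adjusted p = 0.032). The class V chitinase gene AN7886, AN7885 and AN7887 had averages under 10.

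To the right of these lies the orsellinic acid cluster, whose polyketide synthase gene is AN7909. Of its 5 listed genes 4 were at least 2-fold lower in Δ*pkaA*, beside 16.4% of all genes, while AN7914 was higher. The direction of the 4 is opposite to that of the dba genes. One of the 4, AN7913, lay at the limit, with a log2 ratio of -1.01. The count was not repeated under the other scalings, which moved log2 ratios by -0.02 to 0.08. AN7909 had a mean of 83.0 in Δ*pkaA* and 538 in the WT, a limma log2 change of -2.44 (SE 0.58, adjusted p = 0.011). The tyrosinase gene AN7912 had 39.3 in Δ*pkaA* and 181 in the WT (-2.07, SE 0.45, limma adjusted p = 0.0076), and the amidohydrolase gene AN7911 had 12.0 and 46.9 in the same order (-1.84, SE 0.40, limma adjusted p = 0.0072). Without Δ*pkaA* library b the adjusted p was 0.091 for AN7909, 0.069 for AN7912 and 0.064 for AN7911, so none of the 3 was called there, with log2 changes of -2.09, -1.76 and -1.64. The size of the fall also moved with the WT library. AN7909 changed by -3.37 on the log2 scale without WT library a and by -1.51 without b, and AN7912 by -2.71 and -1.43, and both were called in these fits. AN7913, of unknown function, had 883 in Δ*pkaA* and 1776 in the WT and was not in the fit, and the alcohol dehydrogenase gene AN7914 had 36.4 and 22.9 (limma adjusted p = 0.20, but 0.010 without WT library b). AN7909 had 242 reads in WT library a and 811 in b, a ratio of b over a of 3.64. The same ratio was 2.68 (95% interval 1.37 to 5.56, counting error only) for AN7914. It was 2.44 (1.94 to 3.09) for AN7912 and 1.80 (1.16 to 2.83) for AN7911, while the WT reads of AN7913 were not recovered. A higher count in b was thus seen in this cluster too.

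The other polyketide synthase genes were examined to see whether AN7903 moved with its class. Of 29 genes outside the cluster whose function text names a polyketide synthase, 23 had an average of at least 10. Of these 23, 6 were at least 2-fold higher and 11 at least 2-fold lower in Δ*pkaA*, beside 16.3% and 16.4% of all genes. Their median log2 ratio was -0.30, while the median over all 9455 genes was near 0. Of 19 in the limma fit, 5 rose and 8 fell, beside 29.7% and 35.3% of all genes in that fit. AN7903 ranked 2 of 24 by log2 ratio, after AN0523, which had a mean of 13800 in Δ*pkaA* and 33.5 in the WT. It also ranked 2 of 24 by level per kb in Δ*pkaA*, and 21 of 24 in the WT. These ranks, too, draw on the values that chose the members.

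**Figure D4:**
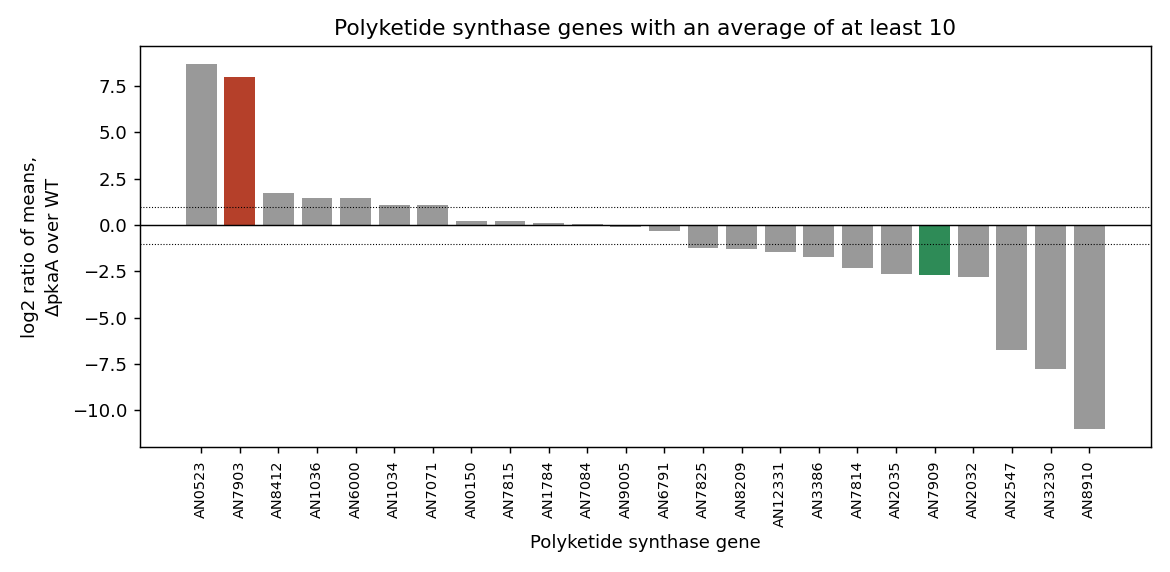
log2 ratio of the means of Δ*pkaA* over WT for the 24 polyketide synthase genes with an average of at least 10, in order of the ratio, with AN7903 in red, AN7909 in green and dotted lines at 2-fold. AN0523 and AN7903 lie at 8.69 and 8.01, and the next gene, AN8412, at 1.74.

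The next largest rises in mean after AN0523 among the other genes of this class were AN8412, with 501 in Δ*pkaA* and 150 in the WT (limma log2 change 1.74, SE 0.29, adjusted p = 0.0023), and AN1036, with 32.1 and 11.6 in the same order. AN1036 had a log2 change of 1.40 (limma adjusted p = 0.025). It was not called without Δ*pkaA* library a (1.73, adjusted p = 0.0504), Δ*pkaA* library b (1.06, 0.16) or WT library a (1.05, 0.065). The largest falls in mean were those of AN8910, with 5.51 in Δ*pkaA* and 11412 in the WT, AN3230, with 83.7 and 18390, and AN2547, with 136 and 14824, none of which had reads recovered in the WT. For WT library b over a, 21 of the other polyketide synthase genes had a WT mean in the recovered range. Of these 21, 1 was at least 2-fold higher in b, the orsellinic acid gene AN7909, beside 3.83% of the 5457 genes compared. The median ratio of the 21 was 1.16, beside 1.02 over the 5457 genes.

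Of 11 genes listed here as outside regulators of secondary metabolite clusters, 10 had a lower mean in Δ*pkaA*. The median log2 ratio over the 11 was -0.40, and that over all 9455 genes was near 0. The list mixes genes needed for clusters with repressors, and the share of all genes with a lower mean at all was not counted. Of these regulator genes, 0 were at least 2-fold higher and 1 was at least 2-fold lower, beside 16.3% and 16.4% of all genes, and the 2 in the limma fit both fell. The velvet gene *vosA* (AN1959) had 441 in Δ*pkaA* and 963 in the WT, a log2 change of -1.13 (SE 0.12, limma adjusted p = 0.0004). The gene of LaeA (AN0807), a methyltransferase-like protein needed for many clusters, had 1260 in Δ*pkaA* and 1683 in the WT, and its partner genes *veA* (AN1052) and *velB* (AN0363) had 11879 and 1793 in Δ*pkaA*, against 15326 and 2372 in the WT. The fourth velvet gene, *velC* (AN2059), had 861 in Δ*pkaA* and 1606 in the WT. The function texts of *vosA* and *velC* name spore formation and sexual development, not secondary metabolism.

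The gene of the repressor McrA (AN8694) had 3295 in Δ*pkaA* and 3712 in the WT. Among chromatin genes, *cclA* (AN9399) had 980 in Δ*pkaA* and 907 in the WT, *hdaA* (AN8042), a histone deacetylase gene, had 2467 and 2610, and *rpdA* (AN4493), of the same class, had 4437 and 5933. The heterochromatin protein gene *hepA* (AN1905) had 2649 in Δ*pkaA* and 2714 in the WT, and the histone methyltransferase gene *clrD* (AN1170) had 130 and 189. The *clrD* change was -0.54 on the log2 scale (SE 0.15, limma adjusted p = 0.022). It was -0.56 without Δ*pkaA* library a and -0.51 without b, where it was not called (adjusted p = 0.088 and 0.11).

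None of the 8 genes of the COP9 signalosome was 2-fold apart between the strains, by means alone and without a test. Their log2 ratios ran between 0.01 for subunit 1 (AN1491), with 2223 in Δ*pkaA* and 2210 in the WT, and 0.66 for subunit 3 (AN5798), with 2964 in Δ*pkaA* and 1877 in the WT. The genes that supply the precursors were also read by means alone. Of 4 genes for acetyl-CoA carboxylase, ATP citrate synthase and the phosphopantetheinyl transferase that arms polyketide synthases, 3 were at least 2-fold higher in Δ*pkaA*, beside 16.3% of all genes, and 0 were at least 4-fold higher. The ratio was largest for the ATP citrate synthase gene AN2436, with 36748 in Δ*pkaA* and 14169 in the WT, and smallest for the phosphopantetheinyl transferase gene AN6140, with 877 in Δ*pkaA* and 608 in the WT.

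Mycelium can also hold conidiophores, the spore-bearing structures, and 7 marker genes of these were read for this. None of the 7 was at 0. Their summed normalized counts were 689 and 729 in the Δ*pkaA* libraries, against 1931 and 1440 in the WT libraries a and b, but the markers did not move together. Of the 7, 1 was at least 2-fold higher in mean and 3 at least 2-fold lower in Δ*pkaA*, beside 16.3% and 16.4% of all genes. Their median log2 ratio was 0.05. Of the 7, limma called 3 higher and 3 lower, beside 29.7% and 35.3% of all genes in that fit. The higher calls were those of *dewA* (AN8006), *yA* (AN6635) and *wetA* (AN1937), with log2 changes of 1.39, 0.80 and 0.76 (limma adjusted p = 0.0098, 0.013 and 0.030), and none of these 3 was called when either Δ*pkaA* library was left out. The developmental regulator gene *abaA* (AN0422) had 130 and 138 reads in the Δ*pkaA* libraries, against 1261 and 667 in the WT libraries a and b (limma log2 change -2.77, SE 0.26, adjusted p = 0.00022), and its normalized counts of 1207 and 694 in a and b stand beside the WT sums of 1931 and 1440. The hydrophobin gene *dewA* had 27 and 26 reads in the Δ*pkaA* libraries, against 10 and 9 in the WT libraries. None of the markers was 2-fold apart between the WT libraries. The part of these cells in the levels of the dba genes was not tested. In bulk samples, how many cells of a type there are and how much RNA each holds cannot be told apart.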

How the data were processed

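RNA-seq libraries of 100-base reads were made from Δ*pkaA* and WT mycelium, with 2 samples per strain. The authors used bowtie2 for alignment to the AspGD reference, HTSeq for counts per gene and DESeq for their own comparison. The sources used here give neither versions nor the genome release. The seed culture time and pH differ slightly between the labels and the paper's methods.

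For 10930 genes the deposited signal is a mean normalized count per strain, made by the authors, with 4 decimals. Which strain a column holds was read from a header in the paper's supplement, and *pkaA* was read as a check. The columns of the authors' own comparison (fold change, p-value and q-value), and a second deposited table of genes selected by p-value, were not used.

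Ratios of the means were computed with no pseudocount, and genes at least 2-fold apart were counted among those with an average of at least 10. Levels per kb used the span between the deposited start and stop. A low mean is a sum of whole multiples of the 2 library steps, and the reads per library were recovered to a tolerance of 6e-05 where only 1 pair matched, for 99.96% of 4833 Δ*pkaA* means under 800 and for all 6542 WT means under 1500. The recovery was tested on simulated data. Exact binomial intervals (95%) for ratios of library b over a cover counting error only. The median of genes of like mean was taken over genes within 1.5-fold. limma, with a mean-variance trend and two-sided tests, used log2(value + 1) of the 3732 genes recovered in all 4 libraries. It leaves out high genes, and genes high in Δ*pkaA* more readily than genes high in the WT, since the limits differ. Its p-values measure only the spread between these samples. It was also tested on simulated counts in which every gene had the same spread beyond counting error. Spread between the real libraries differed among genes, so that test checks the code and does not bear on the p-values here.

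The members, the lists and the tests were chosen with earlier results of these data known. The named genes were all members, flanking genes, regulators and orsellinic acid genes, the 3 largest rises and falls of the other polyketide synthase genes, and the highest and lowest gene of the remaining lists. Alternatives were pseudocounts of 1 and 10, a fold limit of 4, no filter or an average of at least 100, 3 other scalings, and leaving out each recovered library. Gene names and the chromosome came from a RefSeq gene table of another build, and none of its coordinates was used. No sequence is shown, since no genome was used here. The fit was run with limma 3.58.1 in R 4.3.3, and the rest with Python 3.11.15, pandas 2.3.3, NumPy 2.4.6, matplotlib 3.10.9 and SciPy 1.17.1.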

Additional observations from a re-analysis of the deposited data

How the results depend on the processing

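All 10 dba genes stayed over the 2-fold limit, higher in Δ*pkaA*, under the pseudocounts, the scalings and without either WT library, and AN7901 also without either Δ*pkaA* library, in 72 of 72 single-gene ratios. For the other 9 genes no Δ*pkaA* library could be left out. The 72 ratios re-express the same 10 contrasts, by which the members were chosen, so they are not independent support. All 10 also passed the fold limit of 4. Their median log2 ratio ran between 4.60 (without a) and 6.42 (without b) when a WT library was left out, and between 4.995 and 5.20 under the other alternatives. The 7 genes at least 2-fold higher in WT library b stayed 7 in number after the median of genes of like mean was subtracted. The spread among those genes was not compared. At a fold limit of 4, 803 of all genes were higher and 642 lower, as were 1 and 7 of the other polyketide synthase genes, 3 precursor genes became 0, and 1 regulator became 0. With an average of at least 100, 6 of the other polyketide synthase genes were lower, and limma called 3 higher and 3 lower. With 1 library left out, so that 1 strain is a lone sample assumed to vary like the other, limma called 2 to 5 of them higher and 5 to 8 lower, and over all genes 780 to 1166 higher and 954 to 1335 lower. The scalings moved all log2 ratios by -0.02 to 0.08. No paired analysis was possible because the deposited columns are strain means and the recovered libraries carry no replicate numbers. Depth limits the WT levels of 3 members, which had under 10 reads in WT library a, and the WT libraries also differed beyond counting error, as in AN7898 with 30 and 250 reads.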

Other observations

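Further to the left there were other genes with high ratios. AN7884, a putative nonribosomal peptide synthase gene that ends 23.9 kb before AN7893 in the deposited coordinates, had a ratio of 282, and its neighbour AN7883, of unknown function, had a ratio of 488. Both were chosen after their values were seen, and the genes between AN7884 and AN7893 were at most 3.16-fold higher.

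A difference between the WT libraries was not confined to the dba genes, of which 7 of 10 were at least 2-fold higher in b. It was less common among the other genes counted here. Of 300 other genes at least 8-fold higher in Δ*pkaA* with a WT mean in the recovered range, 14.7% were at least 2-fold higher in WT library b than in a, against 1.56% of 3328 genes within 2-fold between the strains and 11.5% of 182 genes at least 8-fold lower in Δ*pkaA*. Their median WT means were 61.5, 590 and 161, in the same order, and lower means carry more counting error. The limit of 8-fold was chosen after the data were seen.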
